A study of Rattus norvegicus with 16 samples.

Results

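Integrins are paired receptors, 1 alpha and 1 beta chain, that hold cells to the matrix outside them, and focal adhesions are the protein plaques that tie their tails to actin. The 36 genes described here are 23 integrin subunits and 13 plaque genes, chosen by name from a count table of 23285 genes. Of the 36, 35 were in the table and 34 passed the filter on low counts. Itgam was not analysed here, and Fermt1, the kindlin of epithelia, stayed between 0 and 0.123 CPM and was not tested. The libraries were made from total RNA of 4 tendons of Sprague Dawley rats, with 4 libraries each of Achilles, flexor, patellar and supraspinatus tendon. The flexor tendon comes from the forepaw and the supraspinatus tendon from the shoulder, so these are the forelimb tendons, while the Achilles and patellar tendons are those of the hindlimb. No group had a treatment or a genotype of its own, and the labels state neither age nor sex. The question set by the design was how RNA levels differ between each tendon and each of the others.

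In tendon, fibroblasts grip type I collagen through collagen-binding integrins, which all share the beta 1 chain. Laminin-binding integrins hold muscle fibres, vessels and Schwann cells to basement membranes, and integrins that read the amino acid motif RGD bind fibronectin, vitronectin and the latent form of TGF-beta. Leukocyte integrins let blood cells leave vessels and settle in tissue. Inside the cell, talins and kindlins switch integrins on, and the complex of ILK, PINCH and parvin, with vinculin, paxillin and FAK, carries force and signals onward.

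Levels are CPM, counts scaled to a common library size by the TMM method. They carry no correction for gene length, so levels and fold changes are compared between tendons within a gene. CPM was set against that of other genes in 1 place, to choose the most abundant member of a role for display. Fold changes are log2 values ± SE, first tendon over second, from edgeR's quasi-likelihood test on all 16 libraries, with p-values adjusted by the Benjamini-Hochberg method over 16948 genes. A difference was called at an adjusted p under 0.05. The titles number the rats 1 to 4 within each tendon and do not say whether a number marks the same rat in every tendon. In bulk RNA, fewer cells of a type and less RNA per cell cannot be told apart.

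Totals ran from 63397591 to 102491699 counts per library, so that 3 counts, the limit that a count of 0 allows, corresponded to 0.0266 to 0.0485 CPM. Each of the 16 libraries had its nearest library, by correlation of log2 CPM, within its own tendon. The tendon marker Tnmd was present throughout, at 195 to 935 CPM in Achilles, 238 to 336 in flexor, 258 to 810.4 in patellar and 421 to 1054 in supraspinatus libraries. The 6 tendon fibroblast markers, all in the table, summed to 60456 to 127860 CPM in Achilles, 23390 to 36850 in flexor, 50425 to 106593 in patellar and 34578 to 68537 CPM in supraspinatus libraries. Flexor sums lay below every Achilles and patellar sum. Marker by marker, 1 of 6 was called higher and 0 lower in Achilles than in flexor tendon, beside 23.5% and 24.1% of all genes. In flexor over patellar tendon 2 were higher and 1 lower, beside 25.8% and 24.7%. The median log2 fold changes of the 6 markers were 0.005 and 0.25 in these comparisons. The part of these markers in the flexor results was not tested. Adipocyte markers, 4 of 4, summed to 2002 to 7527 CPM in Achilles, 287 to 592 in flexor, 3087 to 8556 in patellar and 31.5 to 92.9 CPM in supraspinatus libraries. Skeletal muscle markers, 10 of 10 in the table, were present too. Their summed level was 211 to 7800.4 CPM in Achilles, 7462 to 27874 in flexor, 214 to 17748 in patellar and 70889 to 141831 CPM in supraspinatus libraries. The mean log2 level of these markers, the muscle score, was 11.4 to 12.3 in supraspinatus and at most 9.58 in any other library. A muscle covariate and the supraspinatus tendon therefore cannot be told apart.

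A group of members was high in flexor tendon. Counts of this kind are given beside the share of all genes, and their distance from that share was not tested. Itgb5, Itgav, Itga9, Itga6, Itgb3 and Tln2 were higher in flexor tendon than in each of the other 3 tendons, which is 6 of 34 members, beside 10.9% of all genes by the same rule. With the muscle score as a covariate, Itgb3 kept only its flexor call against Achilles tendon. Itga7 was lower in flexor tendon than in each of the others, 1 of 34 beside 6.6% of all genes. Itga3, Itga6, Itgb4 and Ptk2 were lower in supraspinatus tendon than in each of the others, 4 of 34 beside 8.14%. No member was higher in supraspinatus tendon than in each of the others, where 13.9% of all genes were. Itgb8 was lower in patellar tendon than in each of the others, 1 of 34 beside 1.45%. No member stood in this way above or below all others in Achilles tendon, as did 0.773% (higher) and 0.236% (lower) of all genes, nor above all others in patellar tendon, as did 1.17%.

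By comparison, 14 of 34 members differed between Achilles and flexor tendon, beside 47.7% of all genes. Of these 5 were higher and 9 lower in Achilles, beside 23.5% and 24.1% of all genes. Between Achilles and patellar tendon 1 member was higher and 0 lower in Achilles, where 5.16% of all genes differed, 3.1% higher and 2.06% lower. Between Achilles and supraspinatus tendon 15 members differed, beside 50.1% of all genes. Here 9 were higher and 6 lower in Achilles, beside 25.4% and 24.7% of all genes. Flexor tendon differed from patellar tendon in 18 members, beside 50.5% of all genes, with 11 higher and 7 lower in flexor beside 25.8% and 24.7%. It differed from supraspinatus tendon in 16, beside 47.7%, with 10 higher and 6 lower in flexor beside 23.4% and 24.3%. Patellar and supraspinatus tendon differed in 18 members, beside 56.4%, with 9 higher and 9 lower in patellar beside 28.8% and 27.5%. Forelimb over hindlimb, 19 members differed, beside 58.8%, with 10 higher and 9 lower in forelimb beside 30.3% and 28.5%. Calls of at least 2-fold made up 24.2% of all genes in Achilles over flexor tendon, 2.35% in Achilles over patellar, 24.9% in Achilles over supraspinatus, 26.5% in flexor over patellar, 23.2% in flexor over supraspinatus, 28.8% in patellar over supraspinatus and 23.0% in forelimb over hindlimb tendons. In the test for any difference among the 4 tendons, 26 of 34 members passed, beside 75.6% of all genes. The members' shares, 76.5% in that last test, lay close to those of all genes, so the counts do not set these genes apart; what follows is which genes they were. Of the 22 integrin subunits tested 18 passed the test among the 4 tendons, and of the 12 plaque genes tested 8 passed.

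With the muscle score as a covariate, calls that involve supraspinatus tendon against a hindlimb tendon mostly ended, for all genes as for the members. Of the 15 Achilles and 18 patellar calls against supraspinatus tendon 1 each remained, Itga3 in both, and 7.36% and 10.2% of all genes were called. Of the 19 calls in forelimb over hindlimb tendons 4 remained, Itga3, Itgb2, Itgb5 and Itgb7. Between flexor tendon and the others more calls remained: 10 of 14 remained against Achilles, 11 of 18 against patellar and 11 of 16 against supraspinatus tendon. Of all genes 31.0%, 33.5% and 32.2% were called in these 3 comparisons with the covariate, and 15.8% in forelimb over hindlimb tendons. Fold changes of lost calls could stay similar in size: Itga11 in Achilles over supraspinatus tendon was -0.89 with the covariate, and Itga6 was 0.83 in Achilles and 0.78 in patellar over supraspinatus tendon. Others did not: in Achilles over supraspinatus tendon the fold change of Itga10 shrank and that of Itgb6 changed sign, as given below. Scaling by library totals alone moved the median of all genes by 0.41 in Achilles and patellar over supraspinatus tendon, by 0.34 in flexor over supraspinatus tendon and by -0.24 in forelimb over hindlimb tendons. On that scale 19 members were higher and 2 lower in Achilles than in supraspinatus tendon, 17 higher and 2 lower in flexor than in supraspinatus tendon, 17 higher and 3 lower in patellar than in supraspinatus tendon, and 6 higher and 13 lower in forelimb than in hindlimb tendons. Between Achilles and flexor tendon the split became 7 higher and 8 lower in Achilles. Directions of fold changes under about 0.4 that involve supraspinatus tendon can therefore turn with the scaling. Among calls printed below, scaling by library totals alone also ended those of Itga2 (adjusted p = 0.0844 in flexor and 0.206 in patellar over supraspinatus tendon), Itga10 (0.0504 in Achilles over flexor tendon) and Itgb3 (0.573 in Achilles over supraspinatus, 0.0683 in flexor over patellar tendon). It ended those of Itga8 (0.246 in flexor over supraspinatus tendon) and Itgb8 (0.179 in patellar over supraspinatus tendon, 0.174 in forelimb over hindlimb tendons) as well.

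**Figure D1:**
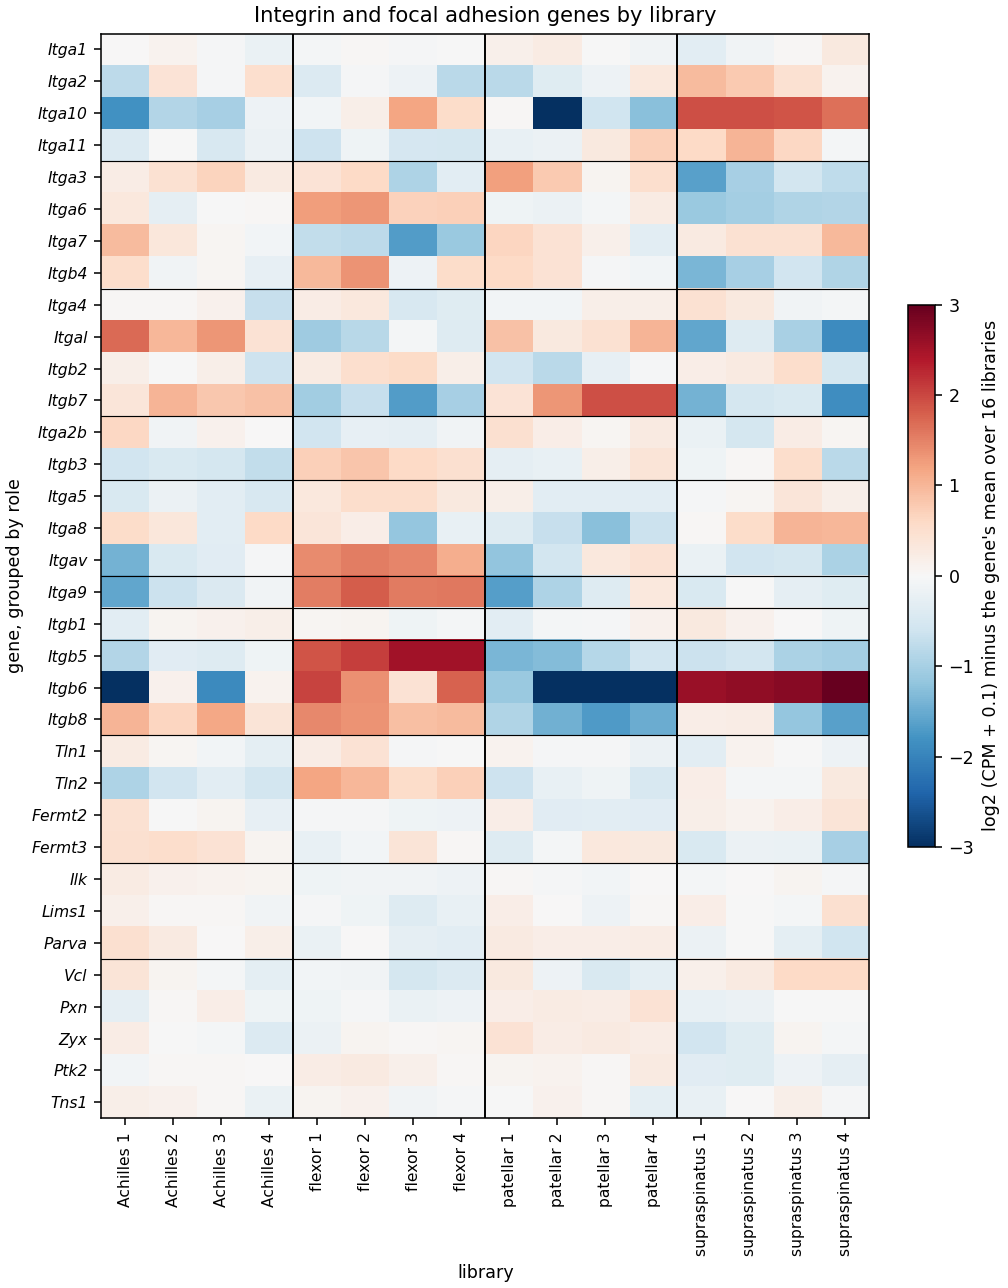
Level of the 34 tested members in each of the 16 libraries (columns, by tendon), as log2 (CPM + 0.1) minus the gene's mean over all libraries, with rows grouped by role and colours ending at -3 and 3. Itgb5, Itgav and Itga9 are red in the 4 flexor libraries, Itga10 and Itgb6 in the 4 supraspinatus libraries, and Itgb1, Tln1 and Tns1 are pale throughout.

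Among the collagen-binding chains, Itga10 and Itga11 were higher in supraspinatus tendon than in Achilles tendon, and Itga1 was called in no comparison. Of the 4 chains 3 passed the test among the tendons, beside 75.6% of all genes. Itga10 (ENSRNOG00000021217), the alpha 10 chain best known from cartilage, had 12.6, 24.3, 22.5 and 40.0 CPM in the Achilles and 42.1, 50.8, 102 and 65.5 CPM in the flexor libraries. Itga10 was at 45.6, 3.63, 29.3 and 18.6 CPM in the patellar and 171, 171, 165 and 140.1 CPM in the supraspinatus libraries. All 4 supraspinatus libraries were above every other library, flexor libraries lay above every Achilles library, and the patellar libraries were scattered. On the log2 scale the differences were -2.7 ± 0.56 (adjusted p = 0.001) in Achilles over supraspinatus tendon, -2.74 ± 0.56 (adjusted p = 0.000813) in patellar over supraspinatus tendon and 2.06 ± 0.38 (adjusted p = 0.000323) in forelimb over hindlimb tendons. Flexor over supraspinatus tendon gave -1.31 ± 0.53 (adjusted p = 0.0534), which was not called. Achilles over flexor tendon gave -1.39 ± 0.53 (adjusted p = 0.0431), a call that 11 of 16 fits without 1 library lost, among them those without Achilles 1, 2 or 3 or without flexor 2, 3 or 4. The call in flexor over patellar tendon (adjusted p = 0.0371) was lost without flexor 3, flexor 4, patellar 3 or patellar 4. Cartilage markers, 4 of 4 in the table, summed to 77.9 to 281 CPM in Achilles, 131 to 293 in flexor, 72.4 to 243 in patellar and 343 to 4374 CPM in supraspinatus libraries. Their part in the Itga10 result was not tested, and Matn1 was at 0 in every patellar library. Within the supraspinatus tendon these sums were 2228, 4374, 343 and 803 CPM in libraries 1 to 4. With the muscle covariate no Itga10 call remained, and the fold change was 1.36 in forelimb over hindlimb tendons (adjusted p = 0.229), -1.75 in Achilles over supraspinatus tendon and -1.72 in patellar over supraspinatus tendon.

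Itga11 (ENSRNOG00000006723), the alpha 11 chain of fibroblasts, had 49.9, 65.8, 47 and 58.4 CPM in the Achilles and 43.1, 60.7, 46.9 and 45.9 CPM in the flexor libraries. Itga11 was at 56.4, 58.5, 81.6 and 109 CPM in the patellar and 100.5, 134, 102 and 63.8 CPM in the supraspinatus libraries. Flexor libraries all lay below the supraspinatus libraries, and Achilles and supraspinatus libraries overlapped in 1 of each. Fitted fold changes were -0.86 ± 0.23 (adjusted p = 0.00662) in Achilles over supraspinatus tendon, with an adjusted p of 0.0952 when scaled by library totals alone, and -1.03 ± 0.23 (adjusted p = 0.00216) in flexor over supraspinatus tendon. Flexor over patellar tendon gave -0.64 ± 0.23 (adjusted p = 0.0327), lost without flexor 1, flexor 3, flexor 4, patellar 3 or patellar 4. Itga2, the alpha 2 chain that also marks platelets and epithelia, averaged 21.4 ± 7.63 CPM in Achilles, 15.7 ± 3.54 in flexor, 17.3 ± 5.56 in patellar and 30.3 ± 7.5 CPM in supraspinatus libraries (SD, n = 4 each). Its fold change was -0.95 ± 0.29 (adjusted p = 0.015) in flexor over supraspinatus tendon, lost without supraspinatus 1, and -0.81 ± 0.29 (adjusted p = 0.0275) in patellar over supraspinatus tendon, lost without patellar 1, patellar 2, supraspinatus 1 or supraspinatus 2. Itga1, the alpha 1 chain that prefers basement membrane collagen, averaged 112 ± 9.53 CPM in Achilles, 112 ± 3.33 in flexor, 119 ± 13.2 in patellar and 113 ± 19.9 CPM in supraspinatus libraries (SD, n = 4 each), and its adjusted p in the test among the tendons was 0.82. Scaled by library totals alone it was 0.00893, with fold changes over supraspinatus tendon of 0.41 in Achilles and 0.34 in flexor tendon.

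Of 9 collagen genes tested as ligands 6 passed the test among the 4 tendons, beside 75.6% of all genes. Col4a1, a basement membrane collagen chain, averaged 1319 ± 216 CPM in Achilles, 561 ± 97.4 in flexor, 2323 ± 361 in patellar and 729.6 ± 98.6 CPM in supraspinatus libraries (SD, n = 4 each). It was highest in patellar and lowest in flexor tendon, with fold changes of 1.23 ± 0.17 (adjusted p = 5.05e-05) in Achilles over flexor tendon and -2.05 ± 0.17 (adjusted p = 7.7e-07) in flexor over patellar tendon. Endothelial markers, 5 of 6 in the table, were also lowest in flexor libraries, with sums of 787 to 1098 CPM in Achilles, 249 to 396 in flexor, 943 to 1597 in patellar and 410 to 829 CPM in supraspinatus libraries. Their part in the Col4a1 result was not tested.

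**Figure D2:**
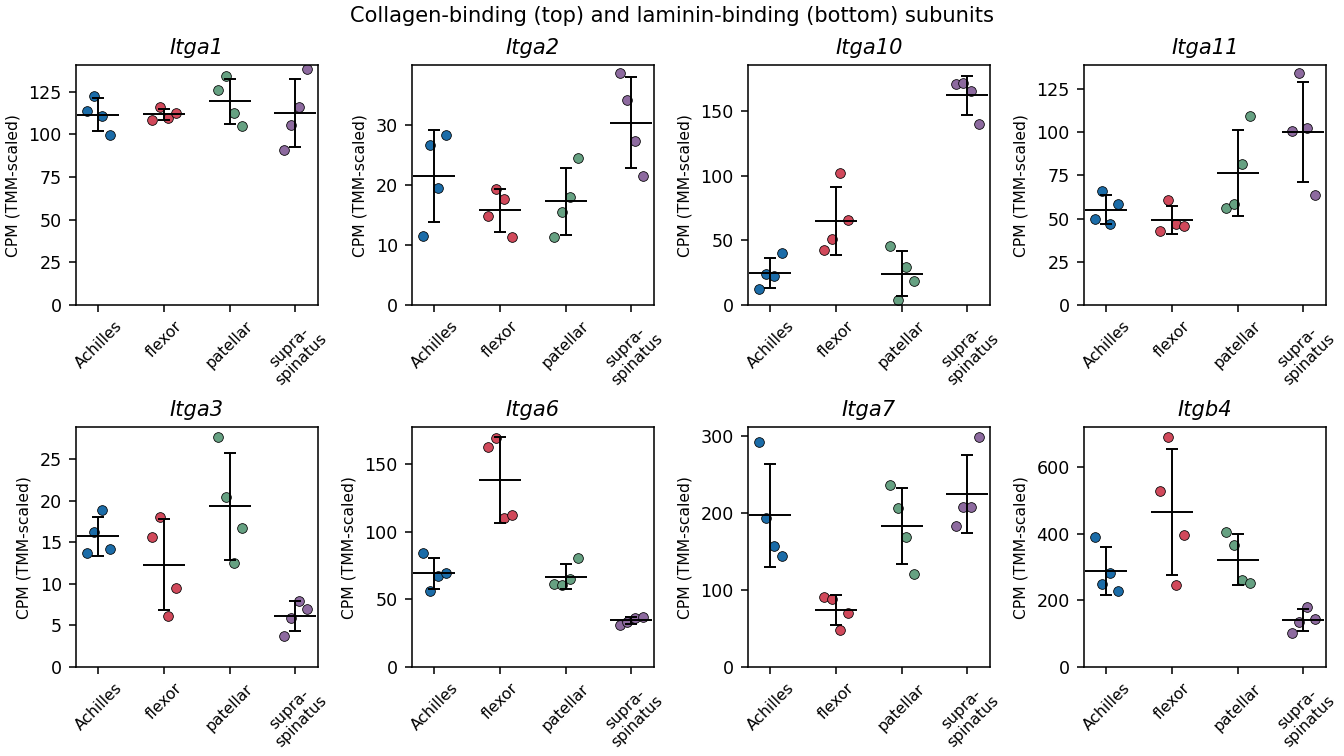
CPM of the 4 collagen-binding and 4 laminin-binding subunits, 1 point per library, with the mean and SD of each tendon (n = 4). Itga10 is above 139 CPM in every supraspinatus library and Itga6 above 109 CPM in every flexor library, while the Itga1 ranges of all tendons overlap.

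All 4 laminin-binding members passed the test among the 4 tendons, beside 75.6% of all genes. Of these 4, Itga3, Itga6 and Itgb4 were lower in supraspinatus tendon than in each of the others, beside 8.14% of all genes. Itga6 (ENSRNOG00000001518), the alpha 6 chain that pairs with beta 1 or beta 4, had 84.5, 56.2, 67 and 69.4 CPM in the Achilles and 163, 169, 110.1 and 112 CPM in the flexor libraries. Itga6 was at 61.8, 60.3, 64.9 and 80.5 CPM in the patellar and 31.5, 33.3, 36.2 and 37.1 CPM in the supraspinatus libraries. The flexor libraries were the highest and the supraspinatus libraries the lowest, neither overlapping any other tendon. Log2 fold changes were 2.0 ± 0.16 (adjusted p = 8.45e-07) in flexor over supraspinatus tendon, -1.0 ± 0.16 (adjusted p = 0.000161) in Achilles over flexor tendon and 1.05 ± 0.16 (adjusted p = 9.25e-05) in flexor over patellar tendon. Achilles over supraspinatus tendon gave 1.01 ± 0.16 (adjusted p = 0.000134) and patellar over supraspinatus tendon 0.95 ± 0.16 (adjusted p = 0.000175).

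Itgb4 (ENSRNOG00000005580), the beta 4 chain, anchors epithelia to laminin with alpha 6 and is carried by Schwann cells in nerve. It had 388, 250.3, 283 and 227 CPM in the Achilles and 528, 689, 245 and 394 CPM in the flexor libraries. Itgb4 was at 406, 367, 262 and 253 CPM in the patellar and 103, 135, 181 and 144 CPM in the supraspinatus libraries. The supraspinatus libraries lay below all others, and the flexor libraries spread from the level of the hindlimb tendons to well above it. The fold change was 1.03 ± 0.28 (adjusted p = 0.00768) in Achilles over supraspinatus tendon, 1.72 ± 0.29 (adjusted p = 0.000227) in flexor over supraspinatus tendon and 1.19 ± 0.29 (adjusted p = 0.00264) in patellar over supraspinatus tendon, while Achilles over flexor tendon gave -0.69 ± 0.28 (adjusted p = 0.0562) and was not called. Of the Schwann cell markers 5 are reported, and these summed to 968 to 4596 CPM in Achilles, 1896 to 2479 in flexor, 721 to 1086 in patellar and 735 to 917 CPM in supraspinatus libraries. The patellar and supraspinatus sums, which weigh abundant markers most, overlapped, and Achilles 1 was the highest. Marker by marker, most of the 5 were called lower in supraspinatus tendon than in Achilles, in flexor and in patellar tendon, and none was called higher. Of all genes 25.4%, 23.4% and 28.8% were lower in supraspinatus tendon in these comparisons. Among these 5, Sox10, the transcription factor that defines Schwann cells, was at 5.2 to 9.75 CPM in Achilles, 7.39 to 22.2 in flexor, 3.5 to 7.83 in patellar and 0.407 to 0.614 CPM in supraspinatus libraries. For Sox10, unlike for the sums, every patellar library lay above every supraspinatus library. Markers of keratinocytes, the epithelium that also uses beta 4, summed to no more than 4.17 CPM in any library. The part of these cells in the Itga6 and Itgb4 results was not tested.

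Itga3 (ENSRNOG00000004276), the alpha 3 chain, had 13.7, 16.2, 18.8 and 14.1 CPM in the Achilles and 15.6, 18, 6.13 and 9.45 CPM in the flexor libraries. Itga3 was at 27.6, 20.4, 12.5 and 16.7 CPM in the patellar and 3.71, 5.84, 7.95 and 6.96 CPM in the supraspinatus libraries. The supraspinatus libraries lay below all Achilles and patellar libraries and overlapped the flexor libraries. On the log2 scale the differences were 1.36 ± 0.33 (adjusted p = 0.00298) in Achilles over supraspinatus tendon, 1.66 ± 0.33 (adjusted p = 0.000665) in patellar over supraspinatus tendon and -1.01 ± 0.23 (adjusted p = 0.00153) in forelimb over hindlimb tendons, and these 3 calls remained with the muscle covariate. Flexor over supraspinatus tendon gave 1.01 ± 0.32 (adjusted p = 0.0189), lost without flexor 1 or flexor 2.

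Itga7 (ENSRNOG00000007905) is the laminin receptor of skeletal and smooth muscle fibres. It ran against Itga6, with 292, 194, 157 and 144 CPM in the Achilles and 91.3, 88.1, 47.9 and 69.8 CPM in the flexor libraries. Itga7 was at 236, 206, 169 and 121 CPM in the patellar and 183, 208, 208 and 299 CPM in the supraspinatus libraries. All flexor libraries lay below every library of the other tendons, and those overlapped one another. Fitted fold changes were 1.41 ± 0.27 (adjusted p = 0.000707) in Achilles over flexor tendon, -1.3 ± 0.27 (adjusted p = 0.00108) in flexor over patellar tendon and -1.6 ± 0.27 (adjusted p = 0.000252) in flexor over supraspinatus tendon, and all 3 calls remained with the muscle covariate. Achilles 1, with the highest Itga7 level of the hindlimb libraries, had the lowest muscle score of all, 2.91, and the highest sum of pericyte and smooth muscle markers, 1612 CPM. The smooth muscle sum was 777 to 1612 CPM in Achilles, 224 to 1355 in flexor, 531 to 1086 in patellar and 274 to 648 CPM in supraspinatus libraries, and its part in the Itga7 result was not tested.

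Of 10 laminin chains tested 9 passed the test among the 4 tendons, beside 75.6% of all genes. Lamc3, a gamma chain, averaged 32.8 ± 8.73 CPM in Achilles, 2.75 ± 0.641 in flexor, 14.7 ± 3.49 in patellar and 8.03 ± 1.31 CPM in supraspinatus libraries (SD, n = 4 each), with a fold change of 3.58 ± 0.24 (adjusted p = 2.43e-07) in Achilles over flexor tendon. Lamc1, the common gamma chain, averaged 147 ± 12.2 CPM in Achilles, 409 ± 60.8 in flexor, 249 ± 95.9 in patellar and 111 ± 3.38 CPM in supraspinatus libraries (SD, n = 4 each), with -1.48 ± 0.21 (adjusted p = 6.09e-05) in Achilles over flexor tendon. Lama2, the chain of muscle and Schwann cell basement membranes, averaged 95.7 ± 22.2 CPM in Achilles, 158 ± 38.3 in flexor, 147 ± 44.4 in patellar and 197 ± 14.7 CPM in supraspinatus libraries (SD, n = 4 each), with -1.04 ± 0.23 (adjusted p = 0.00162) in Achilles over supraspinatus tendon. Lama5 averaged 84.5 ± 9.9 CPM in Achilles, 53.7 ± 16.6 in flexor, 91.5 ± 4.25 in patellar and 36.7 ± 8.84 CPM in supraspinatus libraries (SD, n = 4 each), with 1.32 ± 0.20 (adjusted p = 8.74e-05) in patellar over supraspinatus tendon. Of 13 other laminin or collagen receptors tested 12 passed, beside the same 75.6% of all genes. Of these receptors 8 were higher and 4 lower in forelimb than in hindlimb tendons, beside 30.3% higher and 28.5% lower among all genes. Dag1, dystroglycan, which links laminin to the cytoskeleton without an integrin, averaged 223 ± 18.7 CPM in Achilles, 449 ± 34.2 in flexor, 233 ± 32.6 in patellar and 266 ± 12.5 CPM in supraspinatus libraries (SD, n = 4 each). It was highest in flexor tendon, with -1.01 ± 0.11 (adjusted p = 6.06e-06) in Achilles over flexor tendon and 0.76 ± 0.11 (adjusted p = 6.28e-05) in flexor over supraspinatus tendon.

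Of the 3 RGD-binding alpha chains Itgav was higher in flexor tendon than in each of the others, Itga5 was called higher against the hindlimb tendons alone, and Itga8 was lower in flexor than in supraspinatus tendon. Itga9 and Itgb5 were also higher in flexor tendon than in each of the others. Itgb5, the beta 5 chain that makes a vitronectin receptor with alpha v, had the smallest p of the members. Itgb5 (ENSRNOG00000001795) had 20.8, 30.4, 29.5 and 34.8 CPM in the Achilles and 142, 162, 219 and 219 CPM in the flexor libraries. Itgb5 was at 14.7, 15.4, 21.2 and 25.8 CPM in the patellar and 24.4, 26.2, 19.7 and 19 CPM in the supraspinatus libraries. Every flexor library was at least 142 CPM and no other library exceeded 34.8 CPM. Log2 fold changes were -2.68 ± 0.22 (adjusted p = 7.47e-07) in Achilles over flexor tendon, 3.27 ± 0.23 (adjusted p = 1.82e-07) in flexor over patellar tendon and 3.06 ± 0.22 (adjusted p = 3.42e-07) in flexor over supraspinatus tendon.

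Itgav (ENSRNOG00000004912), the alpha v chain shared by the receptors with beta 3, 5, 6 and 8, had 14.6, 28.5, 31.1 and 38.1 CPM in the Achilles and 104, 115, 108 and 84.3 CPM in the flexor libraries. Itgav was at 17.1, 26.7, 48.7 and 52.8 CPM in the patellar and 34.3, 26.3, 27 and 20.3 CPM in the supraspinatus libraries. The flexor libraries again lay above all others, while the other 3 tendons overlapped. The fold change was -1.87 ± 0.33 (adjusted p = 0.000396) in Achilles over flexor tendon, 1.5 ± 0.33 (adjusted p = 0.0017) in flexor over patellar tendon and 1.93 ± 0.34 (adjusted p = 0.000291) in flexor over supraspinatus tendon. Itga9 (ENSRNOG00000043167), whose receptor with beta 1 binds tenascin-C and osteopontin, had 5.37, 10.1, 11.8 and 14.8 CPM in the Achilles and 46.6, 56.2, 47.1 and 47.9 CPM in the flexor libraries. Itga9 was at 5.03, 8.41, 12.3 and 19.8 CPM in the patellar and 11.5, 15.9, 13.2 and 12.4 CPM in the supraspinatus libraries. It divided the libraries in the same way, with -2.23 ± 0.35 (adjusted p = 0.000146) in Achilles over flexor tendon, 2.12 ± 0.35 (adjusted p = 0.000184) in flexor over patellar tendon and 1.9 ± 0.35 (adjusted p = 0.000443) in flexor over supraspinatus tendon. All 9 of these calls for Itgb5, Itgav and Itga9 remained with the muscle covariate and in all 16 fits without 1 library.

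**Figure D3:**
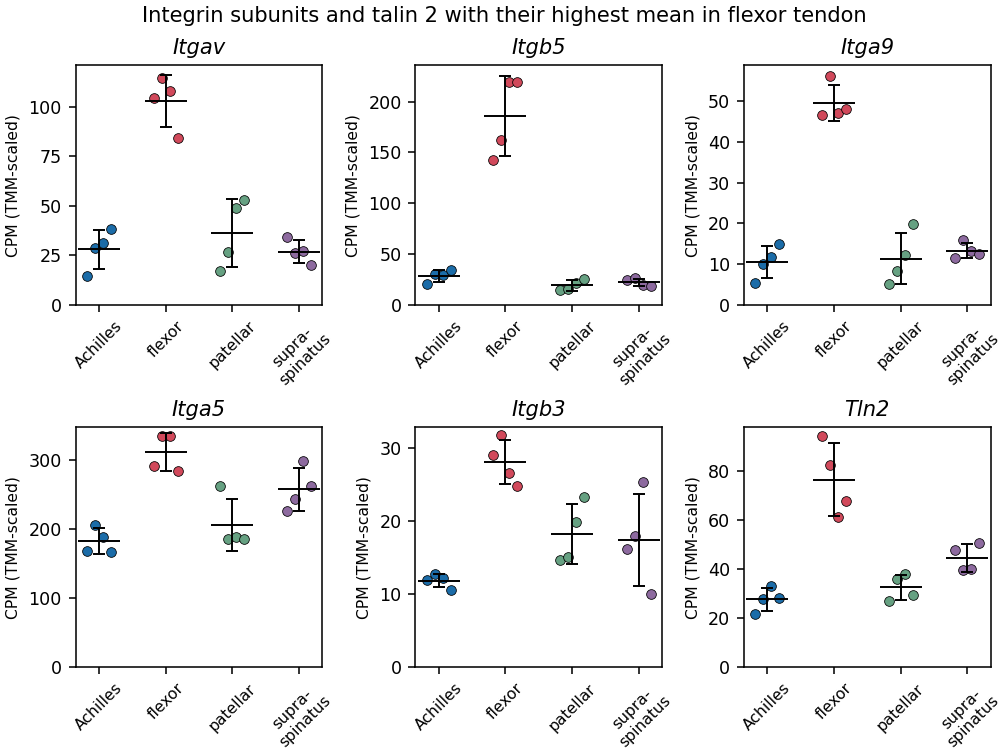
CPM of 6 members with their highest mean in flexor tendon, 1 point per library, with the mean and SD of each tendon (n = 4). The flexor points of Itgav, Itgb5, Itga9 and Tln2 lie above every other library, while flexor and supraspinatus points of Itga5 and Itgb3 overlap.

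Flexor libraries lay above all others for Itgav, Itgb5 and Itga9, and also for Itga6 and Tln2. For the first 3 of these genes the 250 bases before the start are shown. They come from RefSeq on build GRCr8, another build than the rn6 named by the submitters, and are written in the direction of the gene. Itgav lies at chr3:89245132-89245381 on the plus strand, Itgb5 at chr11:80449374-80449623 on the minus strand and Itga9 at chr8:127185039-127185288 on the plus strand. Capitals mark the GC box GGGCGG on either strand.
Itgav: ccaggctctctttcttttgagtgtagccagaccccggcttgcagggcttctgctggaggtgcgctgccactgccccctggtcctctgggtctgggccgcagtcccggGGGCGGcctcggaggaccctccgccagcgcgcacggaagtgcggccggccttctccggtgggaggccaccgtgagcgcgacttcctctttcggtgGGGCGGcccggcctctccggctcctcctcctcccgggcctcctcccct
Itgb5: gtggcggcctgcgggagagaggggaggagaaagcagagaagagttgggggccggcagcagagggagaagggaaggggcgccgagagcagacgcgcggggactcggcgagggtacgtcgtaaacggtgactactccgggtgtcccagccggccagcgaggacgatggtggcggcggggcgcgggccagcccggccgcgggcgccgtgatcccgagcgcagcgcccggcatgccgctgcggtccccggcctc
Itga9: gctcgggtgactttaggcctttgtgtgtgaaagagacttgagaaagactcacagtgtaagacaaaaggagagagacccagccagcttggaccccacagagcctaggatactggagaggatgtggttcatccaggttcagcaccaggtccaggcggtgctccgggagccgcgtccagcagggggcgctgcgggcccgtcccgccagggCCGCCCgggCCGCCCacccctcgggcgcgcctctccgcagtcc
Itgav and Itga9 have 2 GC boxes each and Itgb5 has 0. The Tln2 entry, not shown, also has 0. The GC box was found in 16 of 29 entries of members, which cover 26 of the 36 genes, and in 30.5% of all 33469 windows of this length. The AP-1 site TGANTCA was in 0 of the 29 entries, beside 6.34% of all windows, and the TEAD site CATTCC in 6, beside 12.1%. GC content was 72.0% for Itgav, 74.4% for Itgb5 and 65.2% for Itga9, beside a median of 51.2%. These matches describe the letters and are not shown to be sites.

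Itga5 and Itgb3, 2 more RGD-binding chains, were also higher in flexor than in Achilles and patellar tendon, by less. Itga5 (ENSRNOG00000057451), the alpha chain of the fibronectin receptor, had 169, 207, 189 and 166 CPM in the Achilles and 292, 335, 335 and 284 CPM in the flexor libraries. Itga5 was at 262, 186, 188 and 186 CPM in the patellar and 226, 244, 299.6 and 263 CPM in the supraspinatus libraries. Flexor libraries were above all Achilles and patellar libraries and overlapped the supraspinatus libraries. On the log2 scale the differences were -0.77 ± 0.13 (adjusted p = 0.000285) in Achilles over flexor tendon, 0.6 ± 0.13 (adjusted p = 0.00165) in flexor over patellar tendon and 0.55 ± 0.09 (adjusted p = 0.000149) in forelimb over hindlimb tendons. With the muscle covariate the first of these calls remained (adjusted p = 0.012). Those in flexor over patellar (0.0544) and forelimb over hindlimb tendons (0.281) ended. Achilles over supraspinatus tendon gave -0.5 ± 0.13 (adjusted p = 0.00583), with an adjusted p of 0.637 when scaled by library totals alone. Patellar over supraspinatus tendon gave -0.33 ± 0.13 (adjusted p = 0.0462), lost without any 1 of patellar 2, 3 or 4 or supraspinatus 2, 3 or 4, and its direction turned, to 0.09, when scaled by library totals alone. Fn1, fibronectin, the ligand of that receptor, averaged 3782 ± 983 CPM in Achilles, 3409.6 ± 573 in flexor, 2398 ± 674 in patellar and 6690.4 ± 1007 CPM in supraspinatus libraries (SD, n = 4 each), with -0.97 ± 0.24 (adjusted p = 0.00434) in flexor over supraspinatus tendon.

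Itgb3 (ENSRNOG00000048449), the beta chain of the vitronectin receptor and of the platelet fibrinogen receptor, had 11.9, 12.7, 12.3 and 10.5 CPM in the Achilles and 29, 31.8, 26.6 and 24.8 CPM in the flexor libraries. Itgb3 was at 14.7, 15.1, 19.8 and 23.2 CPM in the patellar and 16.2, 18, 25.3 and 9.98 CPM in the supraspinatus libraries. Flexor libraries lay above every Achilles and patellar library and overlapped 1 supraspinatus library, at 25.3 CPM. Patellar libraries lay above every Achilles library. Fitted fold changes were -1.24 ± 0.22 (adjusted p = 0.000391) in Achilles over flexor tendon and 0.59 ± 0.15 (adjusted p = 0.00453) in forelimb over hindlimb tendons, the second with an adjusted p of 0.0803 when scaled by library totals alone. Flexor over patellar tendon gave 0.62 ± 0.22 (adjusted p = 0.028), lost without flexor 1, flexor 2, patellar 1 or patellar 2. Flexor over supraspinatus tendon gave 0.69 ± 0.22 (adjusted p = 0.0176), lost without flexor 2. Achilles over supraspinatus tendon gave -0.55 ± 0.22 (adjusted p = 0.0487), lost without any 1 Achilles library, flexor 1 or supraspinatus 1, 2 or 3. With the muscle covariate the Itgb3 call in Achilles over flexor tendon remained (adjusted p = 0.00335). Those in flexor over patellar (0.0648) and flexor over supraspinatus tendon (0.182) ended. Itga2b, the platelet alpha chain, averaged 4.37 ± 1.08 CPM in Achilles, 3.1 ± 0.426 in flexor, 4.58 ± 0.594 in patellar and 3.59 ± 0.82 CPM in supraspinatus libraries (SD, n = 4 each), with -0.57 ± 0.20 (adjusted p = 0.0277) in flexor over patellar tendon, lost without flexor 1 or patellar 1. Platelet markers, 3 of 5 in the table, summed to 31.1 to 53.1 CPM in Achilles, 30.1 to 66.4 in flexor, 29.2 to 55.2 in patellar and 18.2 to 40.8 CPM in supraspinatus libraries.

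Itga8 (ENSRNOG00000016538), the alpha chain of the nephronectin receptor, had 43.8, 37.5, 23.9 and 45.2 CPM in the Achilles and 38.4, 34.1, 13.2 and 25.4 CPM in the flexor libraries. Itga8 was at 22.7, 18.2, 12.4 and 19 CPM in the patellar and 30.3, 43.6, 60.6 and 59.5 CPM in the supraspinatus libraries. Patellar libraries lay below every Achilles and every supraspinatus library and overlapped the flexor libraries. The log2 fold change was -1.43 ± 0.32 (adjusted p = 0.00164) in patellar over supraspinatus tendon. Flexor over supraspinatus tendon gave -0.8 ± 0.31 (adjusted p = 0.0471), lost without Achilles 1, Achilles 4, flexor 3, flexor 4 or supraspinatus 2, 3 or 4, and Achilles over patellar tendon gave 1.06 ± 0.32 (adjusted p = 0.0674), not called. Of 12 genes for RGD and related ligands 10 passed the test among the 4 tendons, beside 75.6% of all genes. Tnc, tenascin-C, a ligand of alpha 9 beta 1, averaged 725 ± 311 CPM in Achilles, 120.2 ± 19.5 in flexor, 488 ± 132 in patellar and 683 ± 208 CPM in supraspinatus libraries (SD, n = 4 each). It was lowest in flexor tendon, where Itga9 was highest, with 2.59 ± 0.33 (adjusted p = 2.36e-05) in Achilles over flexor tendon and -2.51 ± 0.33 (adjusted p = 3.22e-05) in flexor over supraspinatus tendon. Spp1, osteopontin, averaged 102 ± 55.3 CPM in Achilles, 165 ± 83.4 in flexor, 76 ± 60.3 in patellar and 335 ± 76.7 CPM in supraspinatus libraries (SD, n = 4 each), and its fold change was -2.14 ± 0.62 (adjusted p = 0.00893) in patellar over supraspinatus tendon.

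Itgb6 and Itgb8 make the receptors, with alpha v, that release active TGF-beta from its latent form. Itgb6 (ENSRNOG00000008346), best known from epithelia, had the widest range of all members, with 0.31, 7.65, 1.8 and 7.57 CPM in the Achilles and 29, 18.4, 9.51 and 24.3 CPM in the flexor libraries. Itgb6 was at 3.19, 0.411, 0.541 and 0.649 CPM in the patellar and 43.1, 44.7, 47.3 and 101 CPM in the supraspinatus libraries. All 8 forelimb libraries lay above all 8 hindlimb libraries, and the 4 supraspinatus libraries lay above the flexor libraries. The fold change was -3.77 ± 0.85 (adjusted p = 0.00197) in Achilles over supraspinatus tendon, -5.61 ± 0.94 (adjusted p = 0.00017) in patellar over supraspinatus tendon, 4.07 ± 0.88 (adjusted p = 0.00144) in flexor over patellar tendon and 3.92 ± 0.61 (adjusted p = 6.95e-05) in forelimb over hindlimb tendons. Achilles over flexor tendon gave -2.23 ± 0.80 (adjusted p = 0.032), lost without Achilles 3, flexor 1 or flexor 4, and flexor over supraspinatus tendon gave -1.54 ± 0.77 (adjusted p = 0.116), not called.

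Itgb6 levels are given beside the skeletal muscle markers, whose part in the Itgb6 result was not tested. Achilles 1, with 0.31 CPM, had a muscle score of 2.91, and Achilles 2, with 7.65 CPM, one of 7.19. Patellar 1, with 3.19 CPM, had a muscle score of 7.56, while patellar 2, 3 and 4, all under 0.65 CPM, had scores of 4.88, 3.51 and 5.71. Flexor 3 had both the lowest Itgb6 level and the lowest muscle score of the flexor libraries, 7.41, and supraspinatus 4 had both the highest Itgb6 level and the highest score, 12.3. The order did not hold throughout. Supraspinatus 3 had the lowest score of its tendon, 11.4, and more Itgb6 than supraspinatus 1, which had a score of 11.7. Among patellar libraries, patellar 2 had the lowest Itgb6 level and patellar 3 the lowest score. Patellar 1 had a higher score than flexor 3 and less Itgb6. With the muscle covariate the fold change was 1.09 in Achilles over supraspinatus tendon and 1.25 (adjusted p = 0.0268) in flexor over supraspinatus tendon, both of the opposite sign. Flexor over patellar tendon was still called (adjusted p = 0.0135), while forelimb over hindlimb (0.81), Achilles over flexor (0.773) and patellar over supraspinatus tendon (0.827) were not. Keratinocyte markers summed to 1.93 to 4.17 CPM over all libraries. The flexor libraries, which had the highest Itgb5 levels, had muscle scores of 7.41 to 9.58, below those of the supraspinatus libraries and overlapping that of patellar 1.

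**Figure D4:**
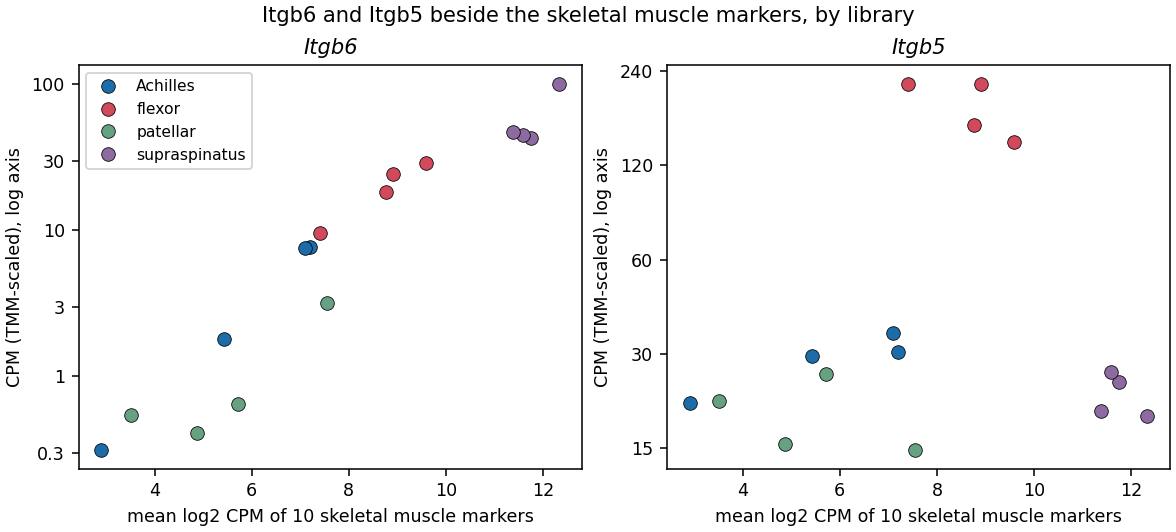
CPM (log axis) of Itgb6 (left) and Itgb5 (right) against the mean log2 CPM of 10 skeletal muscle markers, 1 point per library, coloured by tendon. Itgb6 is highest in the supraspinatus libraries, which have scores of 11.4 to 12.3, and lowest in Achilles 1, with a score of 2.91, and Itgb5 is above 141 CPM in the flexor libraries alone.

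The 250 bases before Itgb6, at chr3:65530334-65530583 on the minus strand of GRCr8, from RefSeq, are shown for the 1 CArG box, the motif of serum response factor, found among the 29 entries of members. It begins 95 bases before the start and is in capitals; both strands were searched, and 1.5% of all windows hold one.
Itgb6: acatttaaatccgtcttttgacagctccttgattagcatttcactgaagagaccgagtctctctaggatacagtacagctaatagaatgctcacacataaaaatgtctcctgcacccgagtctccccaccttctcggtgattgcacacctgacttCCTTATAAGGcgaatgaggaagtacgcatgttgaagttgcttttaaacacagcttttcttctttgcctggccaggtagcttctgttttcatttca
GC content of this window was 43.2%, and it has 0 GC boxes, AP-1 sites and TEAD sites. The RNA level of the factor was not examined here, and its protein was not measured.

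Itgb8 (ENSRNOG00000006569) had 16.4, 12.7, 18.1 and 10.6 CPM in the Achilles and 22, 20.7, 15.1 and 15.6 CPM in the flexor libraries. Itgb8 was at 4.27, 2.89, 2.43 and 2.81 CPM in the patellar and 9.3, 9.47, 3.54 and 2.56 CPM in the supraspinatus libraries. The patellar libraries lay below all Achilles and flexor libraries, and the supraspinatus libraries split, with 1 and 2 well above 3 and 4. It was the 1 member called between Achilles and patellar tendon, at 2.22 ± 0.37 (adjusted p = 0.00512). On the log2 scale the differences were 1.21 ± 0.36 (adjusted p = 0.0112) in Achilles over supraspinatus tendon, 2.56 ± 0.38 (adjusted p = 6.69e-05) in flexor over patellar tendon and 1.56 ± 0.36 (adjusted p = 0.00255) in flexor over supraspinatus tendon. Patellar over supraspinatus tendon gave -1.01 ± 0.36 (adjusted p = 0.0278), lost without patellar 2, 3 or 4 or supraspinatus 1 or 2. Forelimb over hindlimb gave 0.67 ± 0.25 (adjusted p = 0.0319), lost in 9 of 16 fits without 1 library, among them those without either supraspinatus 1 or 2. Tgfb1, the ligand that both receptors can activate, averaged 25.3 ± 7.79 CPM in Achilles, 28.3 ± 2.6 in flexor, 30.9 ± 7.65 in patellar and 20.8 ± 4.19 CPM in supraspinatus libraries (SD, n = 4 each), with an adjusted p of 0.123 in the test among the tendons and 0.57 ± 0.22 (adjusted p = 0.0382) in patellar over supraspinatus tendon.

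Itgb1 (ENSRNOG00000010966), the beta chain that pairs with all 4 collagen-binding chains and with most of the laminin-binding ones, had 658, 874, 898 and 927 CPM in the Achilles and 853, 880.4, 750.1 and 786 CPM in the flexor libraries. Itgb1 was at 667, 788, 809.7 and 895 CPM in the patellar and 1007, 899, 831 and 758 CPM in the supraspinatus libraries. All 4 tendons overlapped, and Itgb1 was called in no comparison, with an adjusted p of 0.76 in the test among the tendons. The largest of its 6 pairwise fold changes was -0.15 ± 0.13 (adjusted p = 0.376) in patellar over supraspinatus tendon. When scaled by library totals alone, Achilles over supraspinatus tendon was 0.35 (adjusted p = 0.0468).

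Leukocyte integrins divided by chain. Itgal and Itgb7 were higher in both hindlimb tendons than in both forelimb tendons, Itgb2 was higher in flexor than in patellar tendon, and Itga4 was called in no comparison. Of the 4 chains 3 passed the test among the tendons, beside 75.6% of all genes. Itgal (ENSRNOG00000017980), the alpha chain of LFA-1 on lymphocytes and other leukocytes, had 27.1, 16.5, 21 and 11.2 CPM in the Achilles and 3.93, 4.64, 7.88 and 6.34 CPM in the flexor libraries. Itgal was at 15.4, 10.2, 11.3 and 16.9 CPM in the patellar and 2.76, 6.28, 4.2 and 2.17 CPM in the supraspinatus libraries. No forelimb library reached the lowest hindlimb library. Fitted fold changes were 1.73 ± 0.34 (adjusted p = 0.000891) in Achilles over flexor tendon, 2.3 ± 0.35 (adjusted p = 9.92e-05) in Achilles over supraspinatus tendon, -1.24 ± 0.34 (adjusted p = 0.0072) in flexor over patellar tendon, 1.8 ± 0.35 (adjusted p = 0.000527) in patellar over supraspinatus tendon and -1.77 ± 0.24 (adjusted p = 2.37e-05) in forelimb over hindlimb tendons. With the muscle covariate only the call in Achilles over flexor tendon remained (adjusted p = 0.032).

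Itgb7 (ENSRNOG00000012208), the beta chain of the receptors by which lymphocytes and mast cells enter and stay in tissue, had 8.78, 13.7, 11.9 and 12.5 CPM in the Achilles and 3.24, 4.17, 2.03 and 3.33 CPM in the flexor libraries. Itgb7 was at 8.95, 16.9, 25.9 and 26 CPM in the patellar and 2.46, 4.65, 4.9 and 1.8 CPM in the supraspinatus libraries. The forelimb libraries again all lay below the hindlimb libraries, and Achilles and patellar libraries overlapped. Log2 fold changes were -2.61 ± 0.38 (adjusted p = 5.79e-05) in flexor over patellar tendon, 1.88 ± 0.37 (adjusted p = 0.000783) in Achilles over flexor tendon and -2.18 ± 0.26 (adjusted p = 6.52e-06) in forelimb over hindlimb tendons, and these 3 calls remained with the muscle covariate. Achilles over supraspinatus tendon gave 1.76 ± 0.37 (adjusted p = 0.00107) and patellar over supraspinatus tendon 2.49 ± 0.37 (adjusted p = 6.99e-05).

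Itgb2 (ENSRNOG00000001224), the common beta 2 chain of leukocytes, had 52, 45.1, 51.2 and 29.4 CPM in the Achilles and 54, 64.5, 68.2 and 51.3 CPM in the flexor libraries. Itgb2 was at 30.5, 26, 38.7 and 44.9 CPM in the patellar and 52.1, 55.3, 66 and 31.9 CPM in the supraspinatus libraries. Flexor libraries lay above all patellar libraries, and all other pairs of tendons overlapped. The fold change was 0.77 ± 0.23 (adjusted p = 0.0123) in flexor over patellar tendon and 0.49 ± 0.16 (adjusted p = 0.018) in forelimb over hindlimb tendons, the second with an adjusted p of 0.229 when scaled by library totals alone. Itgb2 passed the test among the tendons at an adjusted p of 0.0397, kept in 8 of 16 fits without 1 library. Scaled by library totals alone that adjusted p was 0.0804. Itga4, the alpha 4 chain of the receptor for Vcam1, averaged 12.9 ± 2.93 CPM in Achilles, 13.5 ± 3.76 in flexor, 14.3 ± 1.54 in patellar and 15.4 ± 2.91 CPM in supraspinatus libraries (SD, n = 4 each), with an adjusted p of 0.66 in the test among the tendons. Kindlin-3, encoded by Fermt3 and found in blood cells, averaged 29.5 ± 3.88 CPM in Achilles, 23.2 ± 4.48 in flexor, 23.4 ± 5.16 in patellar and 16.8 ± 4.07 CPM in supraspinatus libraries (SD, n = 4 each), with 0.81 ± 0.20 (adjusted p = 0.0037) in Achilles over supraspinatus tendon.

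Markers of several blood cells differed between the tendons as well. Lymphocyte markers, 6 of 6 in the table, summed to 1.75 to 2.83 CPM in Achilles, 0.603 to 0.877 in flexor, 2.68 to 5.81 in patellar and 0.518 to 1.65 CPM in supraspinatus libraries. Neutrophil and mast cell markers, 6 of 6, summed to 70.8 to 148 CPM in Achilles, 34.1 to 94.7 in flexor, 167 to 365 in patellar and 5.44 to 12.2 CPM in supraspinatus libraries. The 3 general leukocyte markers, all in the table, summed to 166 to 233 CPM in Achilles, 124 to 178 in flexor, 125 to 238 in patellar and 68.6 to 142 CPM in supraspinatus libraries. Macrophage markers, 6 of 6, overlapped in all tendons, at 466 to 745 CPM in Achilles, 566 to 883 in flexor, 425 to 839.9 in patellar and 333 to 636 CPM in supraspinatus libraries. The sums of lymphocyte markers were thus higher in every hindlimb than in every forelimb library, as Itgal and Itgb7 were. The closest sums were 1.75 CPM in an Achilles and 1.65 CPM in a supraspinatus library. Adipocyte marker sums divided the limbs in the same way. The part of these markers in the Itgal and Itgb7 results was not tested. Vcam1, the endothelial ligand of alpha 4 integrins, averaged 68.5 ± 29.5 CPM in Achilles, 16.1 ± 2.88 in flexor, 89 ± 12 in patellar and 15.3 ± 5.7 CPM in supraspinatus libraries (SD, n = 4 each), with -2.31 ± 0.22 (adjusted p = 8.14e-07) in forelimb over hindlimb tendons. Of 5 ligands of leukocyte integrins 4 were lower in forelimb than in hindlimb tendons and 0 were higher, beside 28.5% lower among all genes. Of 3 further leukocyte alpha chains Itgax and Itgae passed the test among the tendons, beside 75.6% of all genes. Itgax, of dendritic cells and macrophages, averaged 2.65 ± 1.29 CPM in Achilles, 0.547 ± 0.253 in flexor, 3.08 ± 1.64 in patellar and 0.757 ± 0.274 CPM in supraspinatus libraries (SD, n = 4 each), with -2.15 ± 0.35 (adjusted p = 0.000102) in forelimb over hindlimb tendons.

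**Figure D5:**
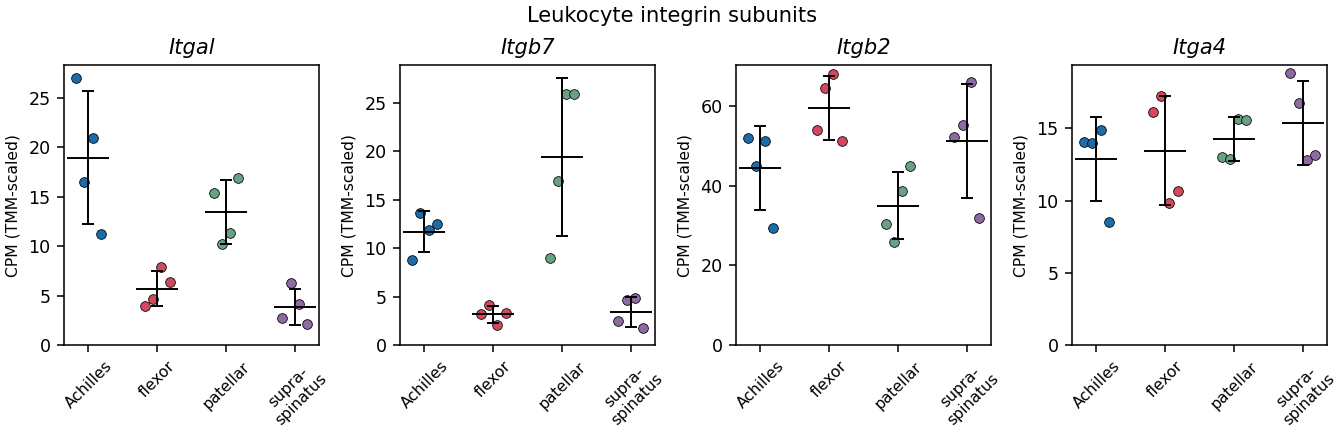
CPM of the 4 leukocyte integrin subunits tested, 1 point per library, with the mean and SD of each tendon (n = 4). Itgal and Itgb7 are lower in every flexor and supraspinatus library than in any Achilles or patellar library, and Itga4 overlaps throughout.

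Inside the cell, talin 2 differed between tendons and talin 1 did not pass the test. Tln2 (ENSRNOG00000018373), the talin that is rich in striated muscle and brain, had 21.7, 27.9, 33.2 and 28.2 CPM in the Achilles and 94.2, 82.5, 61.3 and 67.6 CPM in the flexor libraries. Tln2 was at 27, 35.8, 38.1 and 29.5 CPM in the patellar and 47.9, 39.6, 40.0 and 50.6 CPM in the supraspinatus libraries. The flexor libraries were the highest, and supraspinatus libraries lay above every hindlimb library. On the log2 scale the differences were -1.46 ± 0.16 (adjusted p = 8.62e-06) in Achilles over flexor tendon, 1.23 ± 0.16 (adjusted p = 2.74e-05) in flexor over patellar tendon and 0.78 ± 0.16 (adjusted p = 0.00112) in flexor over supraspinatus tendon, all 3 kept with the muscle covariate, and 0.96 ± 0.11 (adjusted p = 6.4e-06) in forelimb over hindlimb tendons. Achilles over supraspinatus tendon gave -0.68 ± 0.16 (adjusted p = 0.00269) and patellar over supraspinatus tendon -0.45 ± 0.16 (adjusted p = 0.027); scaled by library totals alone their adjusted p was 0.18 and 0.898, and the second was also lost without patellar 1, patellar 4, supraspinatus 1 or supraspinatus 4. Tln1 (ENSRNOG00000016630), the widespread talin, had 438, 385, 352 and 303 CPM in the Achilles and 431, 498, 360.5 and 371 CPM in the flexor libraries. Tln1 was at 401, 364, 361 and 329 CPM in the patellar and 296, 397, 365 and 336 CPM in the supraspinatus libraries. All tendons overlapped, and the adjusted p among them was 0.36, or 0.0192 when scaled by library totals alone. Fermt2, kindlin-2, averaged 248 ± 51.3 CPM in Achilles, 219.9 ± 9.4 in flexor, 206 ± 42.1 in patellar and 271 ± 22.1 CPM in supraspinatus libraries (SD, n = 4 each), with -0.4 ± 0.15 (adjusted p = 0.0348) in patellar over supraspinatus tendon, a call lost without patellar 2, 3 or 4 or supraspinatus 1, 3 or 4 and a direction that turned, to 0.03, when scaled by library totals alone.

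In the complex of ILK, PINCH and parvin, Ilk and Parva were higher in Achilles than in flexor tendon, by less than 2-fold. With the muscle covariate neither of these calls remained (adjusted p = 0.0555 for Ilk and 0.134 for Parva). Parva (ENSRNOG00000015713), alpha-parvin, had 379, 328, 273 and 304 CPM in the Achilles and 237, 273, 223 and 217 CPM in the flexor libraries. Parva was at 328, 311, 309 and 316 CPM in the patellar and 242, 269, 221 and 180.2 CPM in the supraspinatus libraries. All Achilles and patellar libraries lay above every forelimb library, with the closest values both near 273 CPM, in Achilles 3 and flexor 2. Fitted fold changes were -0.45 ± 0.09 (adjusted p = 0.000595) in forelimb over hindlimb tendons and 0.44 ± 0.13 (adjusted p = 0.0119) in Achilles over flexor tendon. Ilk, the pseudokinase at the centre of the complex, averaged 249.7 ± 11.6 CPM in Achilles, 207 ± 3.12 in flexor, 224 ± 7.96 in patellar and 225 ± 9.2 CPM in supraspinatus libraries (SD, n = 4 each), with 0.27 ± 0.07 (adjusted p = 0.0053) in Achilles over flexor tendon. Lims1, which encodes PINCH-1, averaged 89.2 ± 6.55 CPM in Achilles, 76.4 ± 7.77 in flexor, 88.6 ± 8.63 in patellar and 97.4 ± 17.1 CPM in supraspinatus libraries (SD, n = 4 each), and its fold change in flexor over supraspinatus tendon was -0.35 ± 0.12 (adjusted p = 0.0257), lost without supraspinatus 1 or supraspinatus 4, with 0.01 when scaled by library totals alone.

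The actin-linking and signalling members differed by less than 2-fold between any pair of tendons. Of these 5 members 4 passed the test among the tendons, beside 75.6% of all genes. Tns1 (ENSRNOG00000014182), tensin 1, which binds actin filaments at fibrillar adhesions, had 505, 489, 460.3 and 386 CPM in the Achilles and 469, 489, 416 and 435 CPM in the flexor libraries. Tns1 was at 445, 491, 457 and 363 CPM in the patellar and 382, 451, 503 and 438 CPM in the supraspinatus libraries. All tendons overlapped, with an adjusted p of 0.95 among them, or 0.0441 when scaled by library totals alone. Ptk2, which encodes FAK, the tyrosine kinase of focal adhesions, averaged 81.9 ± 3.2 CPM in Achilles, 92.6 ± 6.53 in flexor, 89.6 ± 6.37 in patellar and 67.9 ± 4.85 CPM in supraspinatus libraries (SD, n = 4 each). It was lowest in supraspinatus tendon, with 0.27 ± 0.08 (adjusted p = 0.00977) in Achilles over supraspinatus tendon, 0.45 ± 0.08 (adjusted p = 0.000301) in flexor over supraspinatus tendon and 0.4 ± 0.08 (adjusted p = 0.000588) in patellar over supraspinatus tendon. Vcl, vinculin, which ties talin to actin and is also rich in muscle costameres, averaged 237 ± 48.6 CPM in Achilles, 190.4 ± 29.2 in flexor, 209 ± 49.3 in patellar and 305 ± 48 CPM in supraspinatus libraries (SD, n = 4 each). Its fold change was -0.68 ± 0.18 (adjusted p = 0.00716) in flexor over supraspinatus tendon and -0.54 ± 0.18 (adjusted p = 0.021) in patellar over supraspinatus tendon; scaled by library totals alone these had an adjusted p of 0.178 and 0.613, and the second was also lost without patellar 3, supraspinatus 3 or supraspinatus 4. Pxn, the scaffold paxillin, averaged 155 ± 21.5 CPM in Achilles, 145 ± 6.79 in flexor, 192 ± 14.6 in patellar and 148 ± 11.1 CPM in supraspinatus libraries (SD, n = 4 each), with -0.41 ± 0.10 (adjusted p = 0.0037) in flexor over patellar tendon. Zyx, zyxin, which gathers on stretched actin, averaged 157 ± 27.3 CPM in Achilles, 163 ± 12.4 in flexor, 199 ± 14.5 in patellar and 141 ± 28.1 CPM in supraspinatus libraries (SD, n = 4 each), with 0.49 ± 0.15 (adjusted p = 0.00981) in patellar over supraspinatus tendon. Its passing of the test among the tendons was lost in 11 of 16 fits without 1 library.

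Among adhesion genes outside the 36, 22 of 29 further adaptors and kinases and 14 of 17 further actin-linking proteins passed the test among the 4 tendons, beside 75.6% of all genes. Between Achilles and flexor tendon 6 of these adaptors and kinases were higher and 8 lower in Achilles, beside 23.5% and 24.1% of all genes. Src, the kinase that acts with FAK, averaged 13.5 ± 2.38 CPM in Achilles, 53.4 ± 8.22 in flexor, 14 ± 4.1 in patellar and 12.5 ± 1.33 CPM in supraspinatus libraries (SD, n = 4 each). It had the flexor pattern, with -1.98 ± 0.19 (adjusted p = 2.94e-06) in Achilles over flexor tendon, 1.93 ± 0.19 (adjusted p = 2.92e-06) in flexor over patellar tendon and 2.09 ± 0.20 (adjusted p = 2.28e-06) in flexor over supraspinatus tendon. Fyn, a second kinase of that family, averaged 36.1 ± 5.21 CPM in Achilles, 132 ± 26.9 in flexor, 70.8 ± 35.6 in patellar and 29.2 ± 3.68 CPM in supraspinatus libraries (SD, n = 4 each), with -1.87 ± 0.28 (adjusted p = 8.94e-05) in Achilles over flexor tendon. Svil, supervillin, an actin binder of striated and smooth muscle, averaged 124 ± 29.1 CPM in Achilles, 189 ± 61.2 in flexor, 120.5 ± 25.4 in patellar and 605 ± 118 CPM in supraspinatus libraries (SD, n = 4 each) and was highest in the tendon with the highest muscle markers, whose part in this was not tested.

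The authors' deposited table lists 34 members. By the adjusted p-values in the authors' deposited table, members that differed numbered 15 between Achilles and flexor tendon, 1 between Achilles and patellar, 15 between Achilles and supraspinatus, 19 between flexor and patellar, 20 between flexor and supraspinatus and 19 between patellar and supraspinatus tendon. Of these calls in the authors' deposited table, 13, 1, 14, 18, 16 and 18 were called here in the same direction.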

How the data were processed

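Bulk RNA-seq of 16 libraries, 4 from each of 4 rat tendons, was used. The authors deposited whole-number counts per Ensembl gene; the submitters' processing notes name FastQC, HISAT2, edgeR and build rn6. The counting program, the annotation release and whether strand was used are not given in those notes, the labels or the headers, so reads of overlapping or antisense genes cannot be told apart. A deposited table of the authors' own pairwise edgeR comparisons holds log2 fold changes, and its p-values and FDR values were made by the authors. It was used only for the counts credited to it.

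From the counts, genes were filtered with filterByExpr (minimum count 10, minimum total 15), leaving 16948 of 23285, scaled by TMM and fitted with edgeR 4.0.16 in R 4.3.3, 1 coefficient per tendon and 12 residual degrees of freedom. Quasi-likelihood tests compared the 6 pairs, forelimb with hindlimb, and all 4 tendons, with Benjamini-Hochberg adjustment over all genes tested. For log2 CPM the prior count was 2. The scripts were tested on simulated data. Members are given per library where the adjusted p among the tendons was under 0.05, the highest mean was at least 5 CPM and at least 2-fold the lowest, or where the member was the most abundant of its role. The members and lists were chosen with earlier results of these data known. Alternatives were median-of-ratios factors, library totals, DESeq2 1.42.0, limma-voom (limma 3.58.1), other filters (none, or 1 CPM in 8 libraries), a replicate block, a muscle marker covariate, each pair alone, a 2-fold minimum, each library left out, and Achilles 1 and patellar 1 left out together. 1 of the 6 Schwann cell markers is not reported here, and the sum given for that list leaves it out. Count-based limits cover counting error only. Promoter letters came from RefSeq on GRCr8.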

Additional observations from a re-analysis of the deposited data

Results flagged for a closer look

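Of 136 sets of 4 libraries, 7 held a library far from the others by Dixon's criterion, where chance gives about 1 in 20. The number found is close to that rate, so the count does not set these libraries apart. Patellar 1 was high for Itga5, at 262 CPM beside 186 to 188 CPM, for Fermt2, at 269 CPM beside 184 to 186 CPM, and for Itgb6, at 3.19 CPM beside 0.411 to 0.649 CPM. Patellar 1 also had the highest skeletal muscle marker sum of the patellar libraries, whose part in these values was not tested. Supraspinatus 4 was high for Itgb6, at 101 CPM beside 43.1 to 47.3 CPM. Flexor 2 was high for Itga9, at 56.2 CPM beside 46.6 to 47.9 CPM. Achilles 4 was low for Itga4, at 8.52 CPM beside 14.0 to 14.9 CPM, and Achilles 1 was low for Ptk2, at 77.1 CPM beside 82.8 to 83.9 CPM.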

How the results depend on the processing

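Over 7004 recomputed values of single members, 229 lost a call, 131 gained one, 14 changed direction with a call on either side and 6630 kept their side of the threshold. Among those 6630, 199 fold changes with no call changed sign, 32 of them under library totals and 34 under the muscle covariate. Leaving out each library in turn gave 12 to 15 members called in Achilles over flexor tendon, 1 to 3 in Achilles over patellar, 14 to 16 in Achilles over supraspinatus, 15 to 18 in flexor over patellar, 14 to 18 in flexor over supraspinatus, 14 to 19 in patellar over supraspinatus, 18 to 20 in forelimb over hindlimb and 23 to 27 among the tendons. In Achilles over patellar tendon DESeq2 called 4, the muscle covariate 2, and the fit without Achilles 1 and patellar 1 called 2. The covariate left 1 call in Achilles and 1 in patellar over supraspinatus tendon, and 4 in forelimb over hindlimb. A 2-fold minimum left 8 in Achilles over supraspinatus, 11 in flexor over patellar, 9 in flexor over supraspinatus, 8 in patellar over supraspinatus and 7 in forelimb over hindlimb tendons. Scaling by library totals alone changed the direction of Itga1 (0.41 in Achilles and 0.34 in flexor over supraspinatus), Itgb1 (0.35 in Achilles over supraspinatus), Lims1 (0.30 in Achilles, 0.010 in flexor and 0.30 in patellar over supraspinatus), Pxn (0.31 in flexor over supraspinatus), and, in patellar over supraspinatus, Itga5 (0.090), Fermt2 (0.030), Ilk (0.41) and Tns1 (0.40). The lower TMM factors of the supraspinatus libraries, 0.731 to 0.876, enter these shifts by construction. The muscle covariate changed the direction of Itgb6 (1.09 in Achilles and 1.25 in flexor over supraspinatus) and of Fermt3 (0.16 in forelimb over hindlimb); the cause was not tested. By library totals, 78.7% of all calls were higher in Achilles than in supraspinatus tendon (50.7% with TMM), 78.3% in flexor than in supraspinatus (49.0%), 77.0% in patellar than in supraspinatus (51.1%) and 31.1% in forelimb than in hindlimb tendons (51.5%).

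The rat numbers in the titles did not meet the criterion for pairing, a correlation over 0.1 in every pair: deviations of same-numbered libraries correlated at -0.21 to 0.37 (24 pairs, median 0.03, 9 over 0.1), beside 10 of 72 differently numbered pairs over 0.1, and 19 of 48 best matches were to the same number. Same-numbered pairs were thus over 0.1 more often. Missing a criterion set on every pair does not show that the numbers mark different rats. With a replicate block 13, 1, 14, 18, 16 and 18 members were called in the 6 pairs, in the order above, 18 in forelimb over hindlimb and 25 among the tendons. The block ended the calls of Itga10 in Achilles over flexor (adjusted p = 0.0696), Itgb3 in Achilles over supraspinatus (0.0728), Itga5 in patellar over supraspinatus (0.0649), Ilk in forelimb over hindlimb (0.0544) and Zyx among the tendons (0.0645).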
